A study of Homo sapiens with 6 samples.

Results

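Collagens are the triple-helical proteins of the extracellular matrix, and the 10 genes described here encode chains of collagens I, III, IV, V and VI. They are COL1A1 and COL1A2 (type I), COL3A1 (type III), COL4A1 and COL4A2 (type IV), COL5A1 and COL5A2 (type V), and COL6A1, COL6A2 and COL6A3 (type VI). They were taken by gene symbol from a deposited table of raw counts with 27234 rows, 1 for each gene, and all 10 had a row. RNA came from A673, an established Ewing sarcoma cell line whose cells carry the EWS-FLI1 fusion, a transcription factor made of part of EWSR1 and the DNA-binding part of FLI1. All groups carry this fusion. Cells received siRNA oligonucleotides against FLI1 (siFLI1, 3 libraries) or scrambled oligonucleotides (siControl, 3 libraries) and were harvested after 48 h, and no other treatment is named. The model is 1 cell line, the part of FLI1 that the siRNA targets was not known here, and the labels give transfection in triplicate without saying whether the triplicates were grown or processed on separate days.

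Collagens I, III and V assemble into the fibrils that give connective tissue its tensile strength. Type I is the bulk of most fibrils, type III joins it in elastic tissues, and type V sits in the fibril core and limits its width. Collagen IV forms the sheet-like network of basement membranes, and collagen VI forms beaded filaments around cells. Each molecule is a helix of 3 chains, so a collagen such as type I, IV or VI needs transcripts of more than 1 gene. Mesenchymal cells are the main makers of fibrillar and type VI collagens, and a mesenchymal cell is one proposed origin of Ewing sarcoma.

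Levels are given as CPM, deposited counts rescaled to a library of 1000000 counts with TMM factors (trimmed mean of M values), which even out differences in composition. Libraries were made from the 3' ends of polyadenylated RNA, so levels were not divided by gene length and are compared between libraries, not between genes. Between 417145 counts (siFLI1 replicate 3) and 1893606 counts (siFLI1 replicate 1) were assigned to genes. For siFLI1 replicate 3 that was 10.1% of the total its column header states, and for the rest it was 41.2% to 61.0%. In a principal component analysis siFLI1 replicate 3 lay at 76.1 on component 1, the others from −29.9 to 2.68. On component 3 siControl replicate 1 lay at −42.7, the others from −11.8 to 30.7. FLI1, whose 3' end the fusion transcript carries too, averaged 28.5 ± 12.4 CPM after siFLI1 against 64.8 ± 3.71 CPM (SD, n = 3), without overlap, and did not pass over all genes (edgeR adjusted p = 0.17). Of 9 Ewing sarcoma markers, all were tested and had a negative log2 fold change, and NR0B1 and PRKCB passed as lower. Over all tested genes, 50.4% had a positive log2 fold change and 0.117% were called lower. DESeq2 called 5 markers and limma-voom 4, both including NR0B1 and PRKCB, out of 34 and 15 genes called lower in all. Without siFLI1 replicate 3 and siControl replicate 1 the pair was not called. CCND1, LIPI and STEAP1 were, out of 32 genes called lower. The summed level of all 9 markers was 1210.2 to 1971 CPM in siFLI1 and 2827 to 4019 CPM in siControl. CCND1, the highest of them on average, overlapped between the groups, at 1256 CPM in siFLI1 replicate 1 and 1220 CPM in siControl replicate 1.

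All 10 collagen genes had higher mean levels in siFLI1, and 6 of them rose past the threshold: COL1A1, COL1A2, COL3A1, COL4A1, COL6A1 and COL6A3. The call is an adjusted p below 0.05 in edgeR's quasi-likelihood test over the 9420 genes that passed a filter on low counts, all 10 collagens among them. COL6A3 passed that filter through its siFLI1 libraries alone, so it could only be higher, without overlap, and is no support in the counts that follow. The share of all tested genes called higher was 1.34%, and the share called lower was 0.117%, with 0 collagens among them. Before adjustment, 8 of the 10 had p below 0.05 upwards and 0 downwards, against 6.62% and 4.13% of all tested genes, and DESeq2 and limma-voom also called 0 lower. In 8 of the 10, with COL6A3 so placed by the filter, each siFLI1 library lay above each siControl library. This held for 8.93% of tested genes. The median log2 fold change of the 10 was 1.40, against 0.01 over all tested genes. In RNA from whole cultures, more collagen-making cells and more collagen RNA in each cell cannot be told apart.

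**Figure D1:**
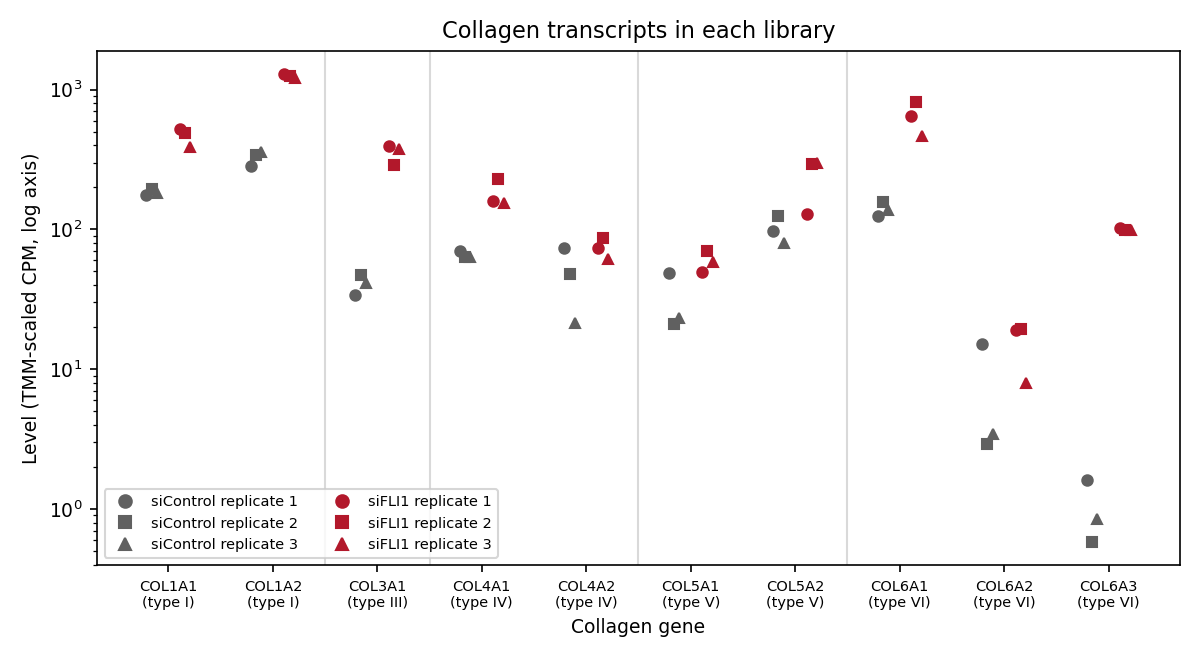
Level of each collagen gene in each library (vertical log axis, TMM-scaled CPM), grey for siControl, red for siFLI1, and 1 point shape for each replicate number. The groups are apart in 8 genes and overlap in COL4A2 and COL6A2, where siControl replicate 1 is the highest siControl library.

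Type I collagen was the first of the fibrillar group. COL1A1, which encodes the alpha-1 chain present in 2 copies in the usual type I helix (row NM_000088, chromosome 17, 50184096 to 50201639, minus strand; all row positions are in hg38), measured 521, 488 and 388 CPM across siFLI1 replicates 1, 2 and 3. In siControl replicates 1, 2 and 3 it measured 177, 194 and 182 CPM. The siControl libraries lay close together and the lowest siFLI1 library was far above them. Its log2 fold change was 1.34 ± 0.25 (SE; 95% interval 0.81 to 1.87; edgeR adjusted p = 0.0107), which is 2.53-fold. Here and for the other genes the interval is not adjusted for the number of genes tested. This call was lost without siFLI1 replicate 1 or 2 or siControl replicate 2 or 3 (highest edgeR adjusted p = 0.105).

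COL1A2, the alpha-2 chain that completes the type I helix (chromosome 7, 94394561 to 94431232, plus strand), was at 1289, 1239.6 and 1210.2 CPM in the siFLI1 libraries and at 283, 343 and 359 CPM in the siControl libraries. Its siFLI1 libraries spread less around their mean of 1246 ± 39.7 CPM (SD, n = 3) than those of COL1A1 did around 465 ± 68.9 CPM. In log2 the change came to 1.93 ± 0.27 (SE; 95% interval 1.35 to 2.50; edgeR adjusted p = 0.00101), or 3.80-fold. COL1A2 kept its call in each fit without 1 library, with log2 fold changes from 1.79 to 1.99.

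The count ratio of COL1A1 to COL1A2 was lower in siFLI1. As log2 it was −1.31, −1.35 and −1.64 in siFLI1 replicates 1, 2 and 3 and −0.68, −0.82 and −0.98 in siControl replicates 1, 2 and 3. The groups did not overlap, and the mean was lower by 0.61 on the log2 scale in siFLI1 (−1.43 ± 0.18 against −0.82 ± 0.15, SD, n = 3). A two-sided exact permutation test gave p = 0.1, the smallest that 3 against 3 libraries allow, and adjusted over the 6 ratios tested p = 0.2. No ratio in this set could pass 0.05 at this number of libraries.

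COL3A1, whose product forms the type III helix from 3 identical chains (chromosome 2, 188974373 to 189012746, plus strand), was at 396, 286 and 375 CPM in the siFLI1 libraries. The siControl libraries held 33.9, 47.4 and 41.02 CPM, from 63, 81 and 48 counts. Of the fibrillar members it had the largest rise, 8.62-fold (95% interval 5.71 to 13.01), which in log2 is 3.11 ± 0.28 (SE; edgeR adjusted p = 1.97e-05). No fit without 1 library took it below 2.95 or above 3.24. Its row contains the microRNA genes MIR1245A, MIR1245B and MIR3606, which had 0 counts.

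The type V genes did not pass. COL5A1, the alpha-1 chain (chromosome 9, 134641805 to 134844842, plus strand), was at 49.8, 70.4 and 58.9 CPM in siFLI1 and at 48.5, 21.08 and 23.08 CPM in siControl. The groups were apart only narrowly, since siControl replicate 1 reached 48.5 CPM and siFLI1 replicate 1 was at 49.8 CPM. On the log2 scale it differed by 0.94 ± 0.38 (SE; 95% interval 0.13 to 1.74; edgeR adjusted p = 0.373). Without siControl replicate 1 it was 1.40 and still did not pass (edgeR adjusted p = 0.126).

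COL5A2, the alpha-2 chain (chromosome 2, 189031915 to 189179879, minus strand), reached 128, 294 and 297 CPM across siFLI1 replicates 1, 2 and 3. Its siControl libraries were at 97.5, 125 and 79.5 CPM. The first siFLI1 library was level with the highest siControl library, and the other siFLI1 libraries stood well above it. The log2 fold change of 1.23 ± 0.33 (SE; 95% interval 0.53 to 1.94) missed the threshold (edgeR adjusted p = 0.0982). COL5A2 passed without siFLI1 replicate 1 (edgeR, 1.55, adjusted p = 0.0276), in DESeq2 (adjusted p = 0.0429) and in edgeR with no low-count filter (adjusted p = 0.0159). The log2 ratio of COL5A1 to COL5A2 overlapped between the groups, at −1.91 ± 0.49 in siFLI1 and −1.77 ± 0.78 in siControl (SD, n = 3; exact permutation p = 0.8), and its small difference turned sign without siFLI1 replicate 3 (0.067) or siControl replicate 1 (0.25).

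COL3A1 and COL5A2 are neighbours on chromosome 2, with 19168 bases between them, opposite strands and no other row of the table in between, so their ends rather than their starts face each other. Their log2 count ratio was 1.63, −0.04 and 0.33 in siFLI1 replicates 1, 2 and 3 and −1.52, −1.40 and −0.95 in siControl replicates 1, 2 and 3. The difference of 1.93 on the log2 scale was without overlap (exact permutation p = 0.1, adjusted over the 6 ratios p = 0.2). In siFLI1 replicate 1, where the ratio was highest, COL3A1 was at its group's highest level and COL5A2 at its group's lowest.

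In type IV, COL4A1 rose and COL4A2 did not pass. COL4A1 and COL4A2 encode the chains of the common basement membrane collagen and lie head to head on chromosome 13 (110148958 to 110307157, minus strand, and 110307267 to 110513209, plus strand). Only 109 bases separate their rows, and the pair is known to share the promoter region between them. The stretches from 250 bases before to 50 after each start in RefSeq (GRCh38.p14) are printed because the genes differ in their calls while 226 of these bases, chr13:110307108-110307333, are the same DNA read on opposite strands. Capitals mark the letters GGAA, the core bound by ETS factors such as FLI1, and TTCC, the same core on the other strand. COL4A1 is chr13:110307108-110307407 (minus strand) and COL4A2 is chr13:110307034-110307333 (plus strand), both 5′ to 3′.
COL4A1: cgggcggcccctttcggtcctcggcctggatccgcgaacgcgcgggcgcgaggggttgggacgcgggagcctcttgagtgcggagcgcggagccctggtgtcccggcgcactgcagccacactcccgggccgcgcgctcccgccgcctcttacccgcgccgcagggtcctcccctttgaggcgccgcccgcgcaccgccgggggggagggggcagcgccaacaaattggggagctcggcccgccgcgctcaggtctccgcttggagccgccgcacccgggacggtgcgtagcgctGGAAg
COL4A2: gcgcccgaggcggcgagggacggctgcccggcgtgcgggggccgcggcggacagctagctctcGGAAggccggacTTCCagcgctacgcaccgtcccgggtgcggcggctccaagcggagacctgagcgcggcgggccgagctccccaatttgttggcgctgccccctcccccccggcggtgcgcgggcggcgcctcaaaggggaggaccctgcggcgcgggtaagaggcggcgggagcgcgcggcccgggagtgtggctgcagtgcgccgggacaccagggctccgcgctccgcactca
The first window holds the core 1 time and the second 2 times, and 95.5% of the 35116 RefSeq start windows of this length hold it at least 1 time, with a median of 3. The core of the first window lies in the shared bases and is the same site as the TTCC of the second. The windows are GC-rich, at 76.7% and 77.7%. Neither holds TATAAA on either strand, which 11.5% of windows do, and each holds CCAAT on 1 strand 1 time, which 34.6% of windows do. This CCAAT is also 1 site in the shared bases. These matches describe letters in a window and not binding.

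COL4A1 reached 159, 229 and 155 CPM across siFLI1 replicates 1, 2 and 3, against 70.5, 63.8 and 63.2 CPM in siControl replicates 1, 2 and 3. The siControl libraries were nearly level and all siFLI1 libraries were above them. Its log2 fold change was 1.46 ± 0.27 (SE; 95% interval 0.89 to 2.04; edgeR adjusted p = 0.00971), a 2.76-fold rise. Leaving out replicate 2 of either group, or siControl replicate 3, ended the call (highest edgeR adjusted p = 0.115).

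COL4A2 reached 73.8, 87.03 and 61.6 CPM across siFLI1 replicates 1, 2 and 3. Its siControl libraries ran from 21.4 CPM in replicate 3 through 48.02 CPM in replicate 2 to 73.2 CPM in replicate 1. The last of these lay within the siFLI1 range, so the groups overlapped. The fitted change in log2 was 0.64 ± 0.38 (SE; 95% interval −0.17 to 1.46; edgeR adjusted p = 0.608), and it was 1.07 without siControl replicate 1 (edgeR adjusted p = 0.311) and 0.31 without siControl replicate 3 (edgeR adjusted p = 0.887). The log2 ratio of COL4A1 to COL4A2 was 1.11, 1.39 and 1.32 in siFLI1 and −0.05, 0.41 and 1.55 in siControl replicates 1, 2 and 3. It was even in siFLI1 and wide in siControl, and its difference of 0.64 was within that spread (exact permutation p = 0.4). Without siControl replicate 3 it was 1.09 (exact permutation p = 0.1, the smallest possible there), and without siControl replicate 1 it was 0.29 (exact permutation p = 0.7). Antisense rows COL4A2-AS1 and COL4A2-AS2 lie within COL4A2 and had 0 counts.

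**Figure D2:**
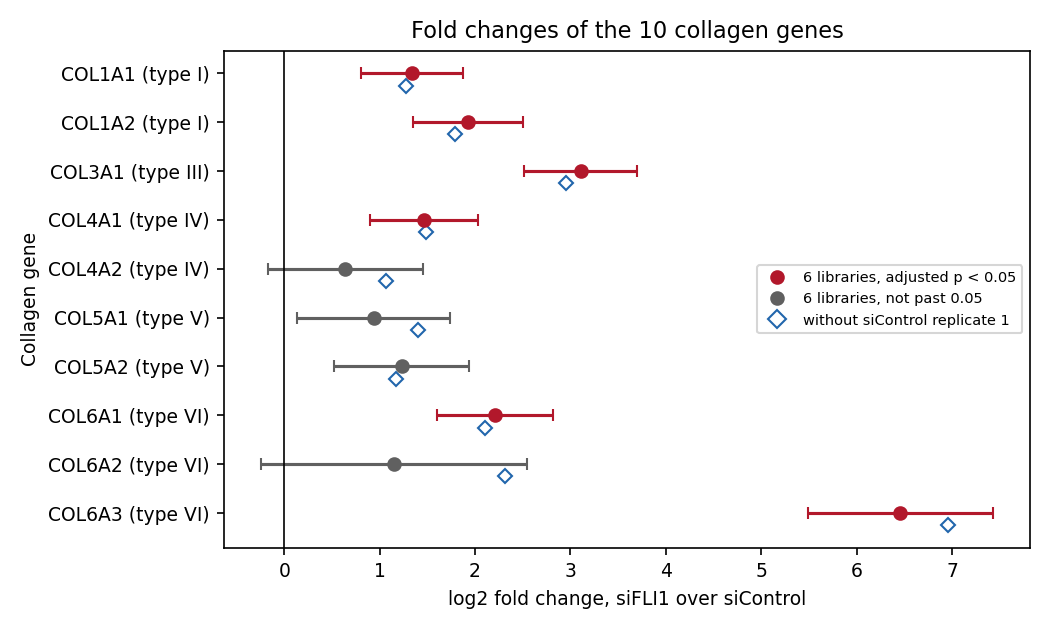
Log2 fold change of siFLI1 over siControl for each gene (horizontal axis), as the edgeR value with its 95% interval over 6 libraries, in red where the adjusted p was below 0.05 and in grey otherwise. Blue open diamonds are the values without siControl replicate 1, which moved COL6A2 from 1.15 to 2.31 and COL4A2 from 0.64 to 1.07.

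Type VI held the largest and one of the least certain differences. COL6A1 and COL6A2 encode the shorter chains and lie on chromosome 21 on the same strand, at 45981749 to 46005049 and 46098119 to 46132849, with 93069 bases between them. COL6A3 encodes the long alpha-3 chain and lies on chromosome 2 at 237324012 to 237414207, minus strand. One chain of each is needed for the usual type VI molecule.

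COL6A3 had 182, 150 and 37 counts in siFLI1 replicates 1, 2 and 3, equal to 102, 99.6 and 99.07 CPM. Its 3, 1 and 1 counts in siControl replicates 1, 2 and 3 equal 1.62, 0.586 and 0.855 CPM. The siFLI1 libraries were almost level, including siFLI1 replicate 3 with its lower depth, and COL6A3 was close to undetected in siControl. From pooled counts of 369 and 5, each divided by its group's TMM-scaled library size, it was 95.3-fold higher, with an exact 95% interval of 40.5 to 295 that covers counting error only. The fitted log2 fold change was 6.46 ± 0.45 (SE; 95% interval 5.49 to 7.43; edgeR adjusted p = 2.6e-06), rank 2 of 9420 genes by size. It stayed between 6.16 and 6.96 in fits without 1 library.

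COL6A1 reached 650.2, 816 and 466 CPM across siFLI1 replicates 1, 2 and 3. Its siControl libraries were at 125, 156 and 137 CPM. All siFLI1 libraries were well above siControl, with siFLI1 replicate 3 the lowest of them. As a log2 change this was 2.21 ± 0.28 (SE; 95% interval 1.60 to 2.82; edgeR adjusted p = 0.000507), or 4.63-fold, and the call held in each fit without 1 library (2.001 to 2.39). The log2 ratio of COL6A3 to COL6A1 was −2.67, −3.03 and −2.22 in siFLI1 and −6.06, −7.48 and −6.74 in siControl replicates 1, 2 and 3. It was higher by 4.12 in siFLI1 without overlap (exact permutation p = 0.1, adjusted over the 6 ratios p = 0.2), and by 3.31 with 2 counts added in place of 0.5, since the siControl counts of COL6A3 were so few.

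COL6A2 had few counts, 34, 29 and 3 in siFLI1 replicates 1, 2 and 3 and 28, 5 and 4 in siControl replicates 1, 2 and 3. In CPM these were 19.01, 19.3 and 8.03, and 15.1, 2.93 and 3.42. The groups overlapped through siControl replicate 1, which was above siFLI1 replicate 3 with its 3 counts. In log2 the difference came to 1.15 ± 0.65 (SE; 95% interval −0.24 to 2.54; edgeR adjusted p = 0.58), against 2.31 without siControl replicate 1 (edgeR adjusted p = 0.199) and 2.57 without both libraries, a fit chosen after the data were seen (edgeR adjusted p = 0.0535). It was 0.77 without siControl replicate 2 (edgeR adjusted p = 0.812). The log2 ratio of COL6A1 to COL6A2 was 5.37 ± 0.28 in siFLI1 and 4.60 ± 1.37 in siControl (SD, n = 3; exact permutation p = 0.6), and its difference of 0.77 fell to −0.015 without siControl replicate 1. The COL6A2 row is NM_001849, which ends at 46132849. In GENCODE release 29 (GRCh38), 3 other coding transcripts of the gene end 3041 to 3044 bases before that point, and 0 bases of their last exons are in the transcript that ends where the row does. Reads from those ends would lie outside the row, so the level of COL6A2 may not cover all its forms.

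Start windows of COL6A3 and COL6A2 are shown for the genes of this molecule with the largest rise and with no call. They come from RefSeq (GRCh38.p14), at chr2:237414115-237414414 (minus strand) and chr21:46097862-46098161 (plus strand), 5′ to 3′, with the same capitals.
COL6A3: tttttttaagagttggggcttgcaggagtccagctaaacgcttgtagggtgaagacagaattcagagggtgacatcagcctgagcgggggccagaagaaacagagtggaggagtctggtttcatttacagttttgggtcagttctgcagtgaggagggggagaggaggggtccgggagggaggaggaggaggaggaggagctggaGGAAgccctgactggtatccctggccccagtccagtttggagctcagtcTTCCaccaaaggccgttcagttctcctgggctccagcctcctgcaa
COL6A2: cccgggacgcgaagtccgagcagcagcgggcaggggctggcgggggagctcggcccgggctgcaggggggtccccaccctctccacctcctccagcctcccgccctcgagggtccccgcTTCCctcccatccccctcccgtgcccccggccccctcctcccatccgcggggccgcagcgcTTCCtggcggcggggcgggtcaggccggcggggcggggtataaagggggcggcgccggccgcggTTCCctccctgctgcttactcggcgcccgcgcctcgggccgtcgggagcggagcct
The GGAA core occurred 2 times in the COL6A3 window and 3 times in the COL6A2 window, near the median of 3 over all windows. GGAAGGAA, a pair of the repeat units that EWS-FLI1 binds in microsatellites, which overlaps the single core, was in neither, and 3.67% of windows hold it on either strand. GC made up 56.3% of the COL6A3 window and 79.3% of the COL6A2 window. TATAAA was found in COL6A2 1 time and not in COL6A3, and the GC box GGGCGG 4 times in COL6A2 and not in COL6A3, against 45.0% of all windows with at least 1. COL5A1 also matched an entry, and COL1A1, COL1A2, COL3A1, COL5A2 and COL6A1 are named without one.

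In 4 of the 10 genes, COL4A2, COL5A1, COL6A2 and COL6A3, siControl replicate 1 was more than 1.5 times as high as each other siControl library. COL4A2 was 2.11 times, COL5A1 2.20 times and COL6A2 4.75 times the mean of the other 2. By the same ratio with 1 CPM added to both sides, they lay at percentiles 93.8, 94.4 and 99.4 of all tested genes. COL6A3 was 2.24 times that mean and at percentile 81.1, and its difference rested on 3 counts against 1 and 1. The other 6 genes ran from 0.767 times for COL3A1 to 1.11 times for COL4A1. The TMM factor of siControl replicate 1, which enters these levels, was 1.23, and those of the other libraries ran from 0.936 to 0.987. Whatever sets siControl replicate 1 apart was not tested.

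Summed by type, every collagen was higher in siFLI1. The 10 genes together came to 3388, 3629 and 3119 CPM in siFLI1 replicates 1, 2 and 3 and to 926, 1002 and 910.2 CPM in siControl replicates 1, 2 and 3, a ratio of means of 3.57. By type this ratio was 3.34 for type I, 8.64 for type III, 2.25 for type IV, 2.28 for type V and 5.14 for type VI, as a description with no test. Type VI made up 18.4% to 25.8% of the summed level of the 10 genes in siFLI1 and 15.3% to 15.96% in siControl. Type III made up 7.89% to 12.02% and 3.66% to 4.73%, and type IV 6.88% to 8.69% and 9.30% to 15.5%. The shares of types III and VI were thus higher, and that of type IV lower, in each siFLI1 library than in each siControl library. Type I kept overlapping shares of 47.6% to 53.4% and 49.7% to 59.4%.

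**Figure D3:**
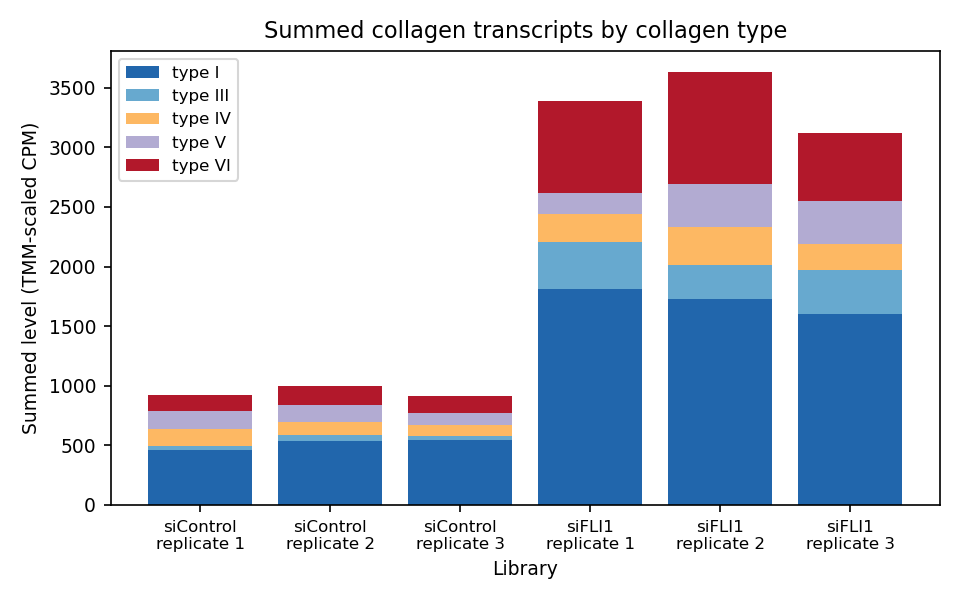
Summed level of the collagen genes of each type in each library (stacked bars from 0, TMM-scaled CPM). The siFLI1 bars reach 3119 to 3629 CPM and the siControl bars 910.2 to 1002 CPM.

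**Figure D4:**
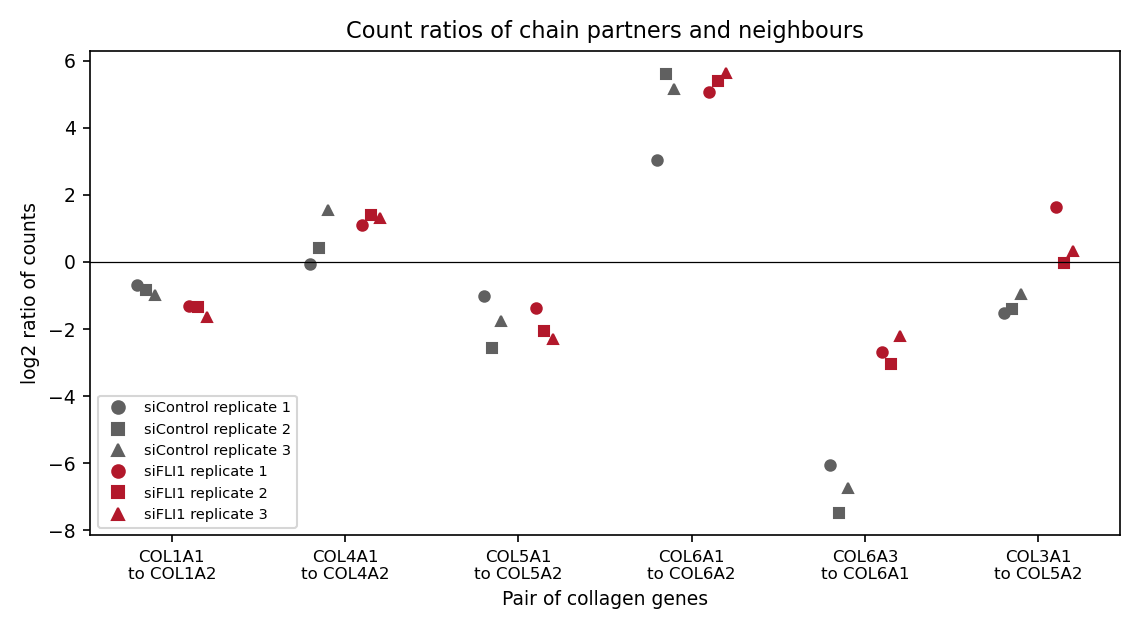
Log2 count ratio of 6 pairs of collagen genes in each library (vertical axis; 0.5 counts added to each), for chains of 1 molecule and for neighbouring genes. The groups are apart for COL1A1 to COL1A2, COL6A3 to COL6A1 and COL3A1 to COL5A2, and overlap for the other 3 pairs.

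Other collagens were mostly too low to test. Of 34 further collagen genes in the table, 2 had 0 counts (COL23A1 and COL28A1), 24 had counts but did not pass the filter, and 8 were tested. Of these, COL12A1, a collagen that decorates fibrils, rose from 10.8 ± 5.87 to 44.4 ± 1.24 CPM (SD, n = 3; log2 fold change 2.003 ± 0.44, SE; edgeR adjusted p = 0.0351), and 0 fell. The median of the 8 was 0.37. COL12A1 did not pass without siFLI1 replicate 3 and siControl replicate 1, where 0 of 9 tested were called. The third type V chain, COL5A3, was at 0.62 ± 0.53 (edgeR adjusted p = 0.755).

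Genes that build collagen were counted in the same way. The counts of this and the next lists stand against 1.34% of all tested genes called higher and 0.117% called lower. Of 17 tested genes for chain hydroxylation and folding, 1 rose and 0 fell, with a median log2 fold change of 0.32. The riser was P4HA2, a prolyl 4-hydroxylase subunit that makes the hydroxyproline which stabilises the helix, from 69.96 ± 25.0 to 354 ± 88.6 CPM (SD, n = 3; 2.35 ± 0.32, SE; edgeR adjusted p = 0.000788). Of 13 tested secretion genes, 1 rose and 0 fell, with a median of 0.15. That member, CREB3L1, is a transcription factor listed for its control of secretory genes rather than a coat or cargo protein, at 2.50 ± 0.43 (edgeR adjusted p = 0.00675). Of 7 tested genes for propeptide cleavage and crosslinking, 2 rose and 0 fell, with a median of 1.04: the lysyl oxidases LOX (3.57 ± 0.31; edgeR adjusted p = 1.87e-05) and LOXL2 (2.38 ± 0.30; edgeR adjusted p = 0.000436), which start crosslinks between chains.

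Partners and receptors of collagen gave the following counts. TGFBI, a collagen-binding matrix protein, was the 1 that rose of 5 tested fibril-associated genes (2.46 ± 0.28, SE; edgeR adjusted p = 0.000169; median 1.17). DESeq2 called 3 of them, with FN1 and SPARC added. Of 9 tested basement membrane partners, all had a positive log2 fold change and 2 passed, the laminin chains LAMA4 (5.30 ± 0.33; edgeR adjusted p = 1.38e-06) and LAMC1 (1.44 ± 0.31; edgeR adjusted p = 0.0287), with a median of 1.56. Without siFLI1 replicate 3 and siControl replicate 1, 5 passed, with LAMA5, LAMB2 and NID1 added. Among 8 tested collagen receptors 1 rose, with a median of 0.43. It was ADGRG1, an adhesion receptor whose known ligand is collagen III, from 1.39 ± 0.68 to 21.1 ± 5.75 CPM (SD, n = 3; 3.74 ± 0.64, SE; edgeR adjusted p = 0.00675). All its siControl libraries were under the filter of 6.50 CPM, so ADGRG1 could only be called higher.

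Among the proteases 1 gene passed, and among the transcription factors 2. Of 7 tested collagen-cleaving proteases, the lysosomal cathepsin CTSB rose (1.15 ± 0.26, SE; edgeR adjusted p = 0.0387) and 0 fell, with a median of 0.62. The interstitial collagenase MMP1, named after its values were seen because it held most of this list's level, was at 7205, 7826 and 6078 CPM in siFLI1 and at 11058, 11763 and 10781 CPM in siControl replicates 1, 2 and 3. It was lower in each siFLI1 library and did not pass (−0.67 ± 0.35, SE; edgeR adjusted p = 0.544). Of 15 tested transcription factors linked to collagen genes, FLI1 among them, 2 rose and 0 fell, with a median of 0.16. SMAD3, which carries TGF-beta signals to collagen promoters, was at 2.09 ± 0.30 (edgeR adjusted p = 0.00153), and RUNX2, the osteoblast factor, at 3.54 ± 0.72 (edgeR adjusted p = 0.0231). RUNX2 too was under the filter in all siControl libraries and could only be called higher, and it was not called without siFLI1 replicate 3 and siControl replicate 1. In these 9 lists DESeq2 and limma-voom called 0 genes lower. Before adjustment, edgeR had p below 0.05 downwards for 2 proteases, MMP9 and CTSK, and 1 transcription factor, against 4.13% of all tested genes. That factor was FLI1, the target of the siRNA, and 0 genes of the other 7 lists were lower in this way. Upwards, p was below 0.05 for 7 of 9 basement membrane partners, 4 of 5 fibril-associated genes and 3 of 7 crosslinking genes. The same held for 2 genes of each other list, and over all tested genes the share was 6.62%. FAP, among those 4 fibril-associated genes and also listed as a fibroblast marker, was under the filter in all siControl libraries. Like ADGRG1 and RUNX2, FAP could only count upwards. BMP1, among those 3 crosslinking genes, averaged 3.01 CPM in siControl, below the filter of 6.50 CPM, and 14.5 CPM in siFLI1. Genes in these counts whose levels are not given here may share this limit.

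**Figure D5:**
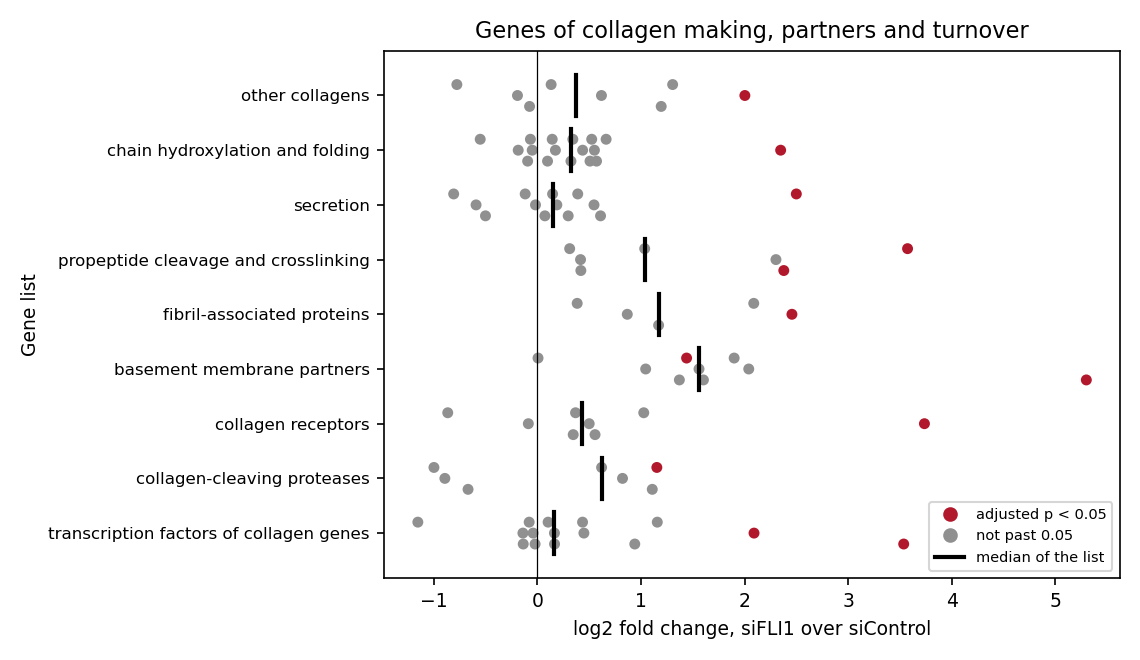
Log2 fold change of siFLI1 over siControl for each tested gene of 9 lists (horizontal axis; points are genes, red where the edgeR adjusted p was below 0.05, and black bars are list medians). List medians run from 0.15 for secretion to 1.56 for basement membrane partners, against 0.01 over all tested genes.

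Markers of other cell types that make collagen were checked beside these results. Of 10 fibroblast and pericyte markers, 6 were tested, and ACTA2 (2.44 ± 0.26, SE; edgeR adjusted p = 0.000108) and S100A4 (2.90 ± 0.37; edgeR adjusted p = 0.000492) rose, with a median of 1.88. PDGFRB (1.68 ± 0.47; edgeR adjusted p = 0.117) and FAP (2.09 ± 0.77; edgeR adjusted p = 0.299) did not pass but were without overlap, each higher in siFLI1. FAP was under the filter of 6.50 CPM in all siControl libraries, so it could only be higher without overlap. DESeq2 called PDGFRB, as did edgeR without siFLI1 replicate 3 and siControl replicate 1. THY1, the marker with the highest mean level, was at −0.30 ± 0.32 (edgeR adjusted p = 0.82), and siControl replicate 1 was its highest library at 484 CPM. RGS5 overlapped between the groups (0.999 ± 0.87, SE; edgeR adjusted p = 0.765). PDGFRA, which was not tested, had a lower mean in siFLI1, at 0.594 CPM against 4.77 CPM, with 13.5 CPM in siControl replicate 1. CSPG4, also not tested, averaged 6.36 CPM in siFLI1 and 5.51 CPM in siControl. The 10 markers summed to 576 to 663 CPM in siFLI1 and 293 to 579 CPM in siControl, and 0 of them were at 0 in all libraries. The fibroblast proteoglycan DCN was near 0 in each group, at means of 1.75 and 0.48 CPM, as was LUM at 2.19 and 0.359 CPM. The part of these markers in the collagen result was not tested. Endothelial markers summed to 8.03 to 14.6 CPM in siFLI1 and 6.44 to 22.1 CPM in siControl, with TEK at 0. Leukocyte markers summed to 68.8 to 84.4 and 49.2 to 59.8 CPM, with CD3E at 0. The leading gene was CD68, except in siFLI1 replicate 3, where PTPRC was at 42.8 CPM and CD68 at 37.5 CPM. Epithelial markers summed to at most 10.7 and 7.69 CPM, with KRT5, KRT14 and KRT19 at 0.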

How the data were processed

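Bulk 3' RNA libraries (MARS-seq type, with molecular barcodes) were made from A673 cells, per the labels' protocols. The authors deposited raw counts per gene over exons. The submitters' processing notes name bcl2fastq, HISAT 0.1.5, HOMER and hg38 without role. Collapse of barcodes and use of strand are not given in the sources used here. Groups and replicate numbers came from sample titles. No libraries of a group agreed within sampling noise (lowest chi-square over its degrees of freedom, 6.78).

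Genes were kept by filterByExpr (minimum count 10, total 15; 9420 genes), scaled by TMM and tested in R 4.3.3 with edgeR 4.0.16 (robust quasi-likelihood F test, two-sided, group as the 1 term; Benjamini-Hochberg over all tested genes, threshold 0.05). Standard errors come from the F statistic. P-values reflect only how these 6 libraries vary, which could be technical variation. Ratios used counts plus 0.5 and exact permutation over libraries. The members and the 14 lists were chosen with earlier results of these data known, so they are not independent evidence. Named by rule were the 10 members, FLI1 and, per list, up to 4 genes past the threshold or, where none passed, the 1 with the smallest adjusted p. Further genes were named outside this rule, with their values known. Alternatives included DESeq2 1.42.0 and limma-voom (limma 3.58.1). Fits were checked on simulated counts.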

Additional observations from a re-analysis of the deposited data

How the results depend on the processing

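The count of 6 collagen genes called higher ran from 4 to 7 over the alternatives, and 0 were called lower in each. It was 6 under DESeq2 size factors, total counts and upper quartile scaling, under a filter of 5 CPM in 3 libraries and in limma-voom, 7 in DESeq2 and with no low-count filter, and 5 at an adjusted p of 0.01. It was 4 to 6 in fits without 1 library, and 6 without siFLI1 replicate 3 and siControl replicate 1, a fit chosen after seeing the data. Total counts moved the median of all genes to −0.12 and no filter to 0.12, and the direction of all 10 held. COL1A2, COL3A1, COL6A1 and COL6A3 kept their calls in each alternative fit at 0.05. Wherever low counts were filtered, COL6A3 passed through siFLI1 libraries alone and could only be higher, so it is no support in these counts. With the replicate number as a block, 6 were called higher and 0 lower, and no collagen changed its call. Same-numbered libraries did not deviate together (r from −0.0472 to −0.0122), so the numbers were not taken as pairs. Without 1 library, the ratio difference of COL5A1 to COL5A2 ran from −0.52 to 0.25 and that of COL6A1 to COL6A2 from −0.015 to 1.27. Over all genes, 64 to 306 were called higher and 1 to 62 lower. The cause of these changes was not tested. Depth limits COL6A2 and the siControl level of COL6A3, which rest on few counts.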
